A study of Mus musculus with 15 samples.

Results

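The genes of the proteasome were followed in mouse liver at 15 months of age. The members were all genes whose symbol begins with Psma, Psmb, Psmc, Psmd, Psme, Psmf or Psmg and a number and which have at least 1 probe set that the platform annotation pairs with that symbol alone. There were 48 such genes among 12393 measured, covered by 85 probe sets. Of these, 27 had 1 probe set, and for the other 21 the probe sets (at most 6) were averaged. Total RNA was hybridized to 15 Affymetrix arrays, of which 5 were from livers of healthy wild type mice, 5 from peritumoral liver of MAT1A knockout mice and 5 from tumors (hepatocellular carcinoma) of MAT1A knockout mice. All mice were on the C57B6SJL background, none was treated, and the labels name no conditional allele. MAT1A makes S-adenosylmethionine (SAMe), the main methyl donor of adult liver, and liver of the knockout is short of it. The labels call the knockout samples biological replicates but do not say that a tumor and a peritumoral sample of equal number came from 1 animal. All values are log2 values made by RMA, and differences between groups are log2 ratios, with a standard error (SE) from the fit. Values of different probe sets are not on 1 scale, so genes were compared by their changes and not by their levels.

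The proteasome is the protease that degrades proteins tagged with ubiquitin. Its 20S core is a barrel with outer rings of alpha subunits (Psma genes) and inner rings of beta subunits (Psmb genes), among which Psmb5, Psmb6 and Psmb7 encode the catalytic ones. Interferon induces Psmb8, Psmb9 and Psmb10, which replace these in the immunoproteasome, and Psme1 and Psme2, which form the PA28 activator, and the products of the altered core are favoured for presentation on MHC class I. The 19S regulatory particle recognises and unfolds tagged proteins with a ring of ATPases (Psmc genes) and a set of non-ATPase subunits (Psmd genes), and when proteasome activity falls short, the transcription factor NRF1 (Nfe2l1) is known to raise many of these genes through antioxidant response elements.

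By role, the members were 7 alpha subunits, the testis alpha subunit Psma8, 7 constitutive beta subunits, 3 immunoproteasome beta subunits, 6 ATPases, 11 non-ATPases, 3 chaperones of 19S assembly (Psmd5, Psmd9 and Psmd10), Psme1, 2 other activators (Psme3 and Psme4), the inhibitor Psmf1 and 4 chaperones of 20S assembly (Psmg1 to Psmg4). Psmc3ip and Psme3ip1 have symbols that fit the pattern but encode no subunit. They are interaction partners and were counted among the 48. The probe set for Psme2 carries several symbols, so Psme2 was not analysed here.

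Some arrays stood apart, and they bear on the values below. Mat1a, the gene deleted in the knockout, lay between 12.25 and 12.72 in wild type liver and between 8.33 and 11.44 in the 10 knockout arrays, with the highest knockout values in peritumoral 2 (11.44), tumor 5 (10.50) and tumor 2 (10.47). Whether its probe sets lie in the deleted part of the gene is not known. Wild type 4 had the highest value of the wild type group for 14 of 20 measured leukocyte markers, with a mean ratio to the wild type mean of 1.03 over the 20, against -0.55 to 0.04 in the other wild type livers and -0.24 to 0.44 in the knockout arrays. Of these markers, 9 had a mean under 5 over the arrays, among them the T cell genes Cd3g, Cd4 and Cd8a. The mean ratio of 10 hepatocyte markers was -0.44 in tumor 5 and between -0.20 and 0.13 in the other arrays. Afp, a fetal liver gene often re-expressed in liver tumors, was higher in all 5 tumors (6.40 to 7.89) than in all wild type livers (3.75 to 4.09), with a log2 ratio of 3.18 and an adjusted p of 0.000995 (limma).

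Relative to wild type liver, the proteasome genes of tumors lay mostly above 0 by small amounts, and none of the 48 passed the test (limma, Benjamini-Hochberg over 12393 genes, adjusted p under 0.05), where 0.565% of all genes did. The log2 ratio of tumor to wild type was above 0 for 37 of the 48 members (77.1%) and for 41.0% of all genes. The median ratio was 0.16 over the members and -0.05 over all genes. Most members had higher mean values than most genes, and the share above 0 among genes of like mean value was not computed. At an unadjusted p under 0.05 there were 6 members higher and 0 lower (12.5% and none of the 48), where all genes gave 7.46% higher and 9.96% lower. The 5 tumors lay above all 5 wild type livers for 3 members (Psmd10, Psme1 and Psmb4) and below them for 0, against 2.23% and 2.84% of all genes. These are values of bulk tissue, in which fewer cells of a type and less RNA per cell cannot be told apart. For 41 of the 48 members the 95% interval of the ratio lay within a 2-fold change in either direction, and for the other 7 (Psma8, Psmb8, Psmb9, Psmd8, Psmd10, Psme1 and Psme4) it reached beyond. With weights for each array in limma, 6 members passed, all higher (Psma7, Psmd1, Psmd8, Psmd10, Psmd14 and Psme1), beside 14.8% of all genes. With wild type 4, peritumoral 2 and tumor 2 left out, 2 did (Psmd8 and Psmd14), beside 4.59%. The arrays left out were picked from these same data. They hold the highest wild type value of Psmd8 and the lowest tumor value of Psmd14, so these 2 calls are no independent support.

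**Figure D1:**
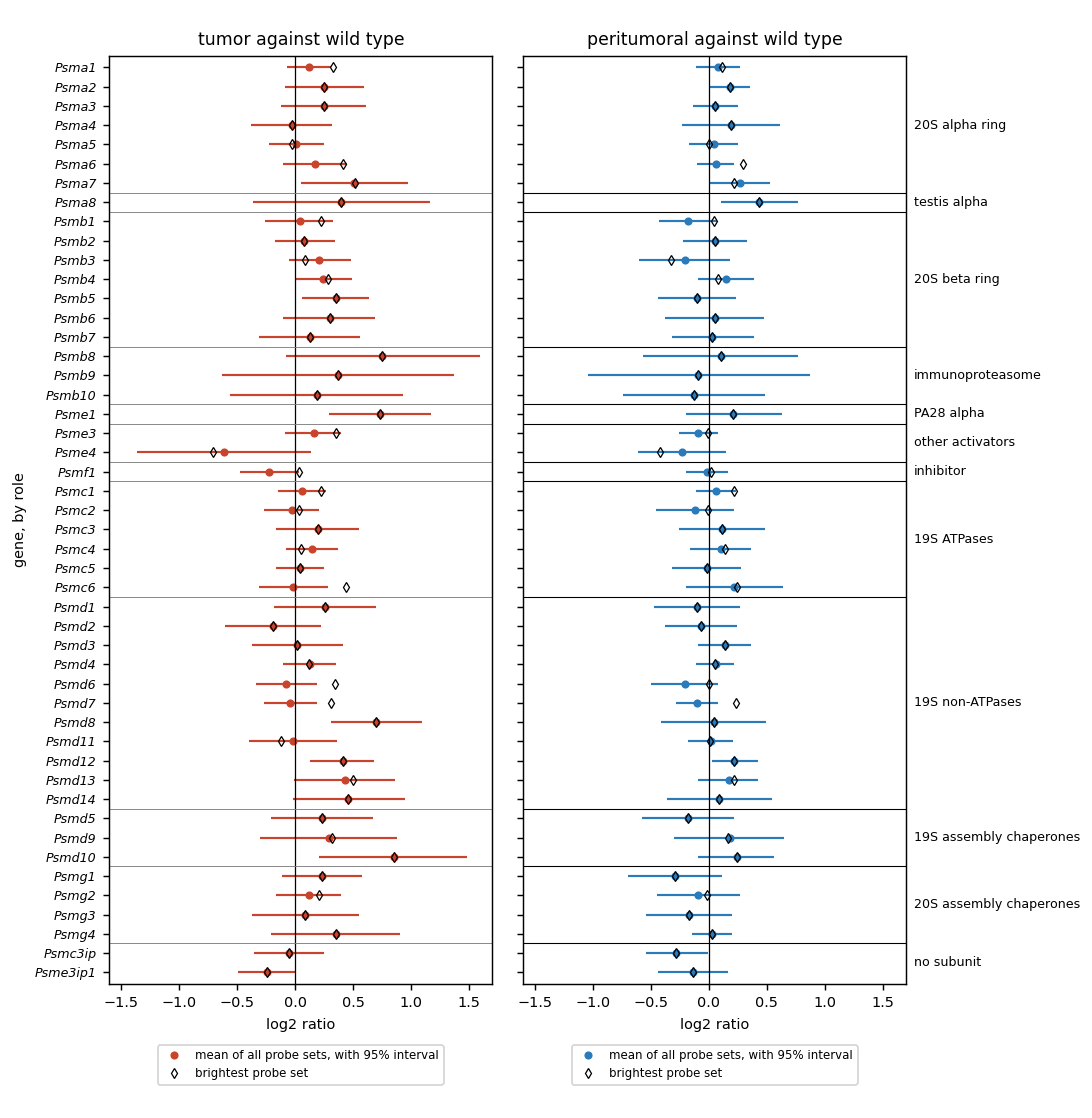
Log2 ratio to wild type liver (x axis) for each of the 48 genes (y axis, grouped by role), for tumors on the left and peritumoral liver on the right. Filled circles are the mean of a gene's probe sets with the 95% interval (n = 5 arrays per group), and open diamonds are the brightest probe set. In tumors 37 circles lie above 0 and the highest are Psmd10, Psmb8, Psme1 and Psmd8, while in peritumoral liver 28 lie above 0.

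The 19S regulatory particle held the member with the smallest p. Psmd8, a non-ATPase subunit of the lid, was at 10.34, 10.28, 10.39, 10.96 and 10.56 in wild type livers 1 to 5, at 10.31, 11.18, 10.61, 10.57 and 10.08 in peritumoral livers 1 to 5 and at 11.24, 11.67, 10.92, 10.94 and 11.27 in tumors 1 to 5. Every tumor was above every wild type liver except wild type 4, which lay just above tumors 3 and 4. The log2 ratio of tumor to wild type was 0.70 (SE 0.17, 1.62-fold, adjusted p = 0.0948). Without wild type 4 it was 0.81 and passed the test (limma, adjusted p = 0.0338), where 2.57% of all genes did. Leaving out wild type 4 is singled out here with its high value known, so that p-value is no independent support. Psmd12, another lid subunit, was between 9.03 and 9.32 in wild type livers (median 9.07) and between 9.29 and 9.86 in tumors (median 9.46). Its ratio was 0.41 (SE 0.13, adjusted p = 0.154), and only wild type 2, at 9.32, reached into the tumor range.

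The ratios of the 19S particle were also taken by its parts, and a difference between the parts was not tested. The 6 ATPases, which unfold the substrate, had ratios from -0.03 to 0.20 with a median of 0.05, and the smallest p among them was that of Psmc4 (0.15, SE 0.10, adjusted p = 0.468). The 11 non-ATPases had ratios from -0.19 to 0.70 with a median of 0.13, and 7 were above 0. Over these 17 subunits the median was 0.06 and 11 were above 0, compared with a median of 0.19 and 13 of 14 above 0 for the constitutive alpha and beta subunits of the 20S core. The difference between these medians was not tested, and with the brightest probe set of each gene they were 0.22 and 0.25. In that setting the ATPases had ratios from 0.03 to 0.44 with a median of 0.12. The non-ATPases then had ratios from -0.19 to 0.70 with a median of 0.31.

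Psmd14, the deubiquitinase of the lid, is given here after its values were seen. It was at 9.91, 9.57, 9.71, 9.57 and 9.64 in wild type livers and at 10.31, 9.25, 10.26, 10.33 and 10.56 in tumors 1 to 5. Tumor 2 was the lowest of these 10 arrays, and the other 4 tumors were above all wild type livers. The ratio over all 5 tumors was 0.46 (SE 0.22, adjusted p = 0.307). Without tumor 2 it was 0.69 (limma, adjusted p = 0.0232), a setting in which 1.1% of all genes were called. Leaving out tumor 2 is singled out here because its low value was seen, so that p-value gives no support for a rise. In peritumoral liver, Psmd14 was likewise lowest in replicate 2, at 8.92, and lay between 9.90 and 10.08 in the other replicates.

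In the 20S core, the alpha subunit with the smallest p was Psma7. It was at 9.52, 9.35, 9.50, 9.85 and 9.36 in wild type livers 1 to 5, at 9.82, 9.55, 9.73, 9.80 and 10.01 in peritumoral livers and at 9.92, 9.74, 9.74, 9.91 and 10.82 in tumors. Wild type 4 overlapped with the knockout arrays, and tumor 5 was far above the other tumors. The ratio of tumor to wild type was 0.51 (SE 0.21, 1.43-fold, adjusted p = 0.242), and without tumor 5 it was 0.31 (adjusted p = 0.210). The ratios of the 7 alpha subunits ranged from -0.03 to 0.51 with 6 above 0, and Psma8, the alpha subunit of testis, was at 3.33 to 4.19 in wild type livers and at 3.48 to 5.41 in tumors (0.40, SE 0.34, adjusted p = 0.563).

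All 7 constitutive beta subunits had ratios above 0 in tumors, from 0.04 to 0.35, and the smallest p was that of Psmb5, which carries the chymotrypsin-like activity. Psmb5 was at 10.44, 10.32, 10.24, 10.21 and 10.16 in wild type livers, at 10.30, 9.57, 10.31, 10.44 and 10.21 in peritumoral livers and at 10.35, 10.67, 10.44, 10.59 and 11.04 in tumors. Tumor 1 lay within the wild type range and tumor 3 just above wild type 1, the highest of that group, and the ratio was 0.35 (SE 0.13, 1.27-fold, adjusted p = 0.223). Psmb4, a structural beta subunit, lay between 10.81 and 11.09 in wild type livers and between 11.11 and 11.58 in tumors, so that the groups did not overlap, but 4 of the 5 tumors were at 11.11 to 11.18, just above the highest wild type liver. Its ratio was 0.24 (SE 0.11, adjusted p = 0.295). With its brightest probe set alone the groups overlapped (lowest tumor 11.49, highest wild type liver 11.53). Psmb6, with the caspase-like activity, and Psmb7, with the trypsin-like activity, had ratios of 0.30 (SE 0.18, adjusted p = 0.409) and 0.13 (SE 0.20, adjusted p = 0.765). Without tumor 5 the ratio of Psmb6 was 0.13 (adjusted p = 0.511).

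**Figure D2:**
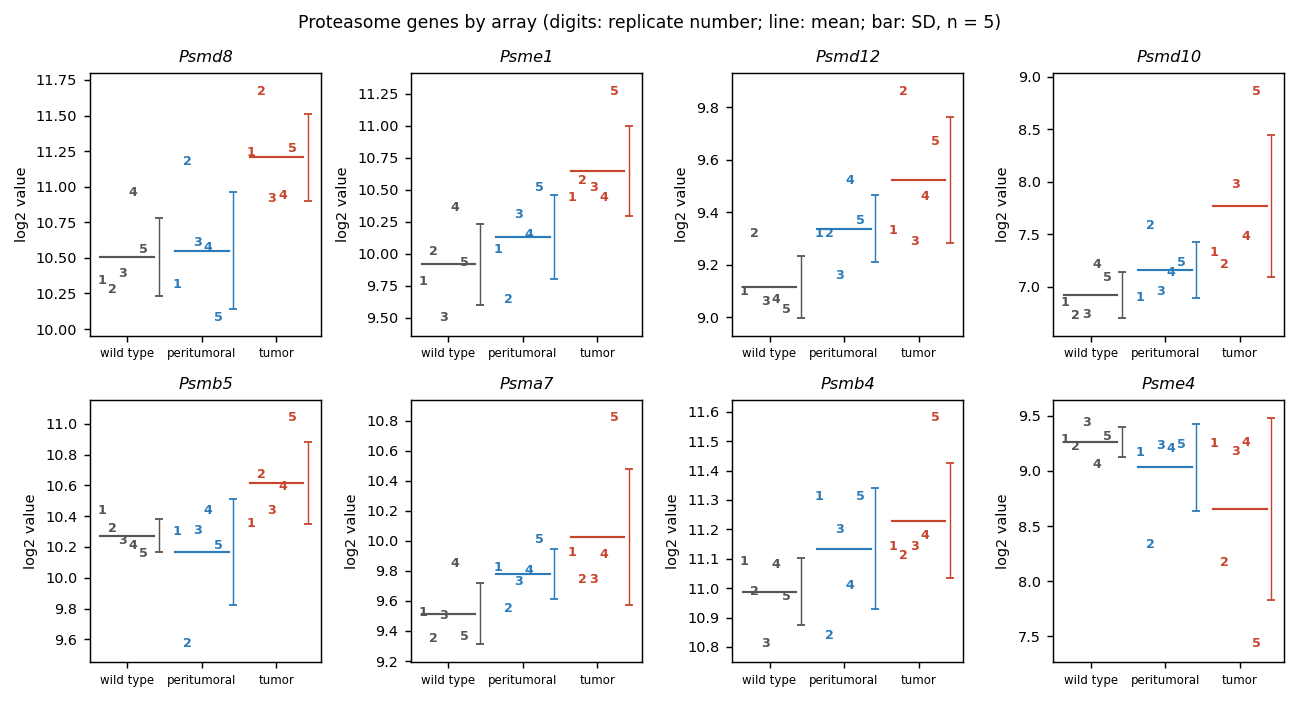
Log2 values (y axis) of 8 proteasome genes in the wild type, peritumoral and tumor arrays (x axis), with each array shown by its replicate number, a line for the mean and a bar for the SD (n = 5). Tumors lie above all wild type livers for Psme1, Psmd10 and Psmb4, tumor 5 is the highest array in 5 of the 8 panels and the lowest for Psme4.

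The immunoproteasome subunits had the widest spread within groups of all members. Psmb8, which takes the place of Psmb5, was at 8.13, 8.64, 7.88, 9.03 and 7.74 in wild type livers 1 to 5, at 8.15, 7.63, 8.56, 8.53 and 9.05 in peritumoral livers and at 7.80, 8.86, 9.28, 9.44 and 9.80 in tumors. Tumors 3, 4 and 5 were above all wild type and peritumoral livers, while tumor 1 was near the lowest wild type liver. The ratio of tumor to wild type was 0.75 (SE 0.38, 1.68-fold, 95% interval -0.08 to 1.59, adjusted p = 0.331). Psmb9, which takes the place of Psmb6, was at 7.88, 8.03, 7.39, 8.35 and 7.64 in wild type livers, at 7.84, 6.05, 8.51, 7.86 and 8.59 in peritumoral livers and at 7.49, 6.86, 8.74, 8.45 and 9.58 in tumors. The low value in each knockout group was that of replicate 2. The ratio of tumor to wild type was 0.37 (SE 0.45, adjusted p = 0.687), and it was 0.03 without tumor 5 and 0.71 without tumor 2 (adjusted p = 0.971 and 0.326). Psmb10, which takes the place of Psmb7, lay between 7.99 and 9.27 in wild type livers and between 7.97 and 9.85 in tumors, with a ratio of 0.19 (SE 0.34, adjusted p = 0.795).

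The SD within groups, pooled over the 3 groups, was 0.88 for Psmb9, 0.62 for Psmb8 and 0.56 for Psmb10, which placed these at the 96.0, 90.6 and 88.1 percentile of all genes. The median over the 48 members was 0.27 and over all genes 0.25, and Psma1, Psmc1 and Psmd4 were at 0.11. The values of Psma1, Psmc1 and Psmd4 are averages over several probe sets, some of them dim, while Psmb8, Psmb9 and Psmb10 have 1 each. The brightest probe set of Psma1 alone had SDs of 0.15, 0.34 and 0.37 in wild type, peritumoral and tumor arrays. Low spreads and percentiles of averaged genes are therefore not on a par with those of single probe sets. In wild type liver, Psmb8, Psmb9, Psmb10 and Psme1 were each highest in wild type 4, the array with the highest leukocyte markers. For all 4 genes wild type 2 was next. The part of leukocytes in these values was not tested. In tumor 5, where all 4 of these genes were at their highest, the mean ratio of the leukocyte markers to the wild type mean was 0.04.

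For each array, the log2 value of the replaced subunit was subtracted from that of the immunoproteasome subunit, to ask whether the exchange partners moved unequally. The difference of Psmb8 and Psmb5 changed from wild type to tumor by 0.40 (SE 0.36), that of Psmb9 and Psmb6 by 0.07 (SE 0.40) and that of Psmb10 and Psmb7 by 0.06 (SE 0.33). The 9 tests over 3 pairs and 3 comparisons gave changes from -0.16 to 0.40 and an adjusted p of 0.849 each (two-sided exact permutation tests over arrays, n = 5 against 5, smallest possible p 0.00794). For Psmb8 and Psmb5 the 3 highest tumors lay between -1.24 and -1.16, a range that wild type 4 (-1.18) and peritumoral 5 (-1.16) also reached.

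**Figure D3:**
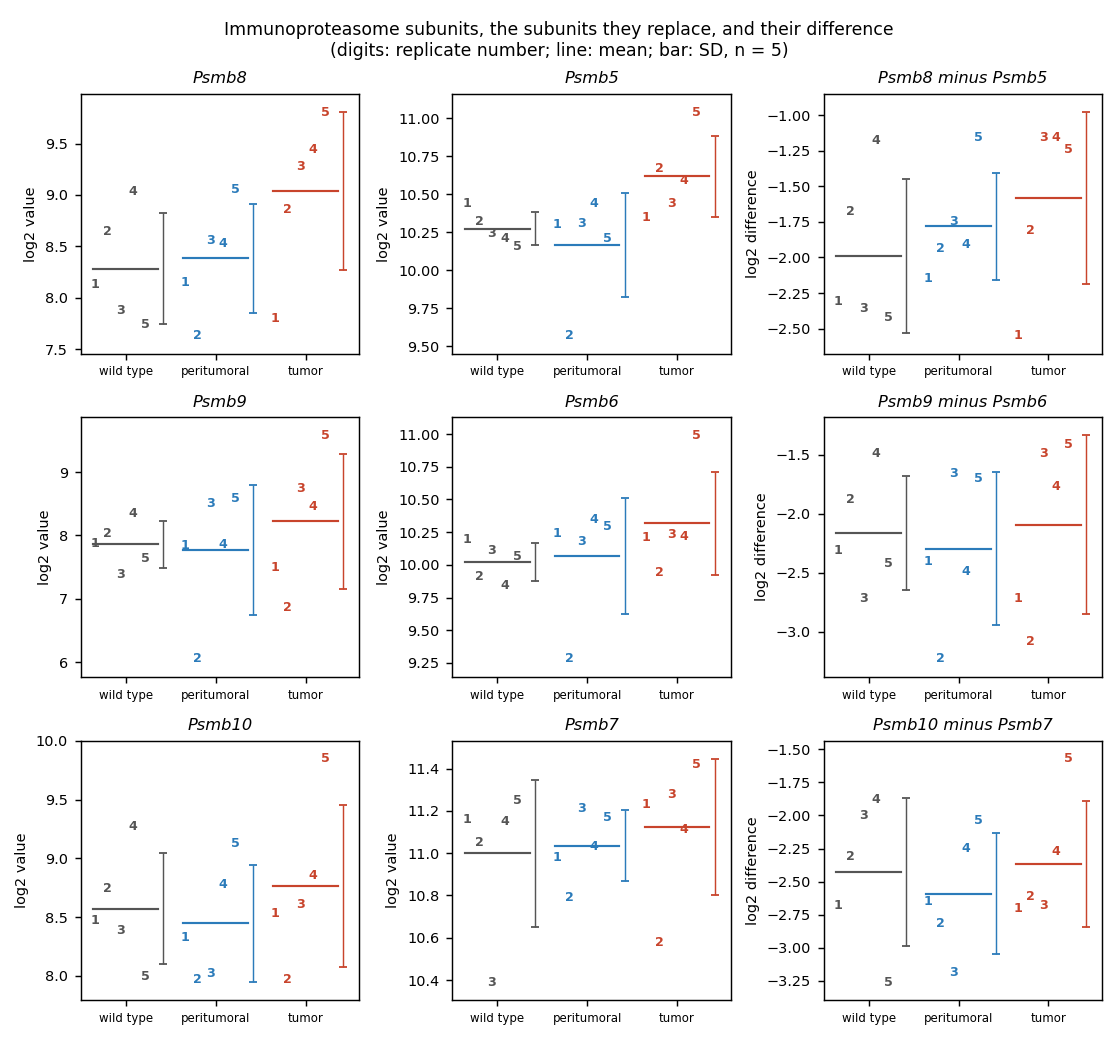
Log2 values (y axis, left and middle columns) of the 3 immunoproteasome subunits and of the constitutive subunits they replace, and their log2 difference (right column), by group (x axis), with each array shown by its replicate number, the mean as a line and the SD as a bar (n = 5). For Psmb8, tumors 3, 4 and 5 lie above all wild type and peritumoral arrays and tumor 1 is low, and replicate 2 is the lowest peritumoral array for Psmb9 and the lowest tumor for Psmb9 and Psmb10.

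Among the activators, Psme1, the alpha subunit of PA28, was at 9.78, 10.02, 9.50, 10.36 and 9.93 in wild type livers 1 to 5, at 10.03, 9.64, 10.31, 10.15 and 10.52 in peritumoral livers and at 10.44, 10.57, 10.52, 10.44 and 11.27 in tumors. All 5 tumors were above all wild type livers, with the lowest tumors just above wild type 4. The ratio was 0.73 (SE 0.20, 1.66-fold, 95% interval 0.29 to 1.17, adjusted p = 0.115), and it was 0.57 without tumor 5 and 0.84 without wild type 4 (adjusted p = 0.116 and 0.0536). Psme4, the activator PA200 that caps the core without ATP, had the lowest ratio of all members. It was between 9.06 and 9.44 in wild type livers and at 9.25, 8.17, 9.18, 9.26 and 7.43 in tumors, so that tumors 2 and 5 were low and the others in the wild type range. Its ratio was -0.61 (SE 0.34, adjusted p = 0.374), and without tumor 5 it was -0.30 (adjusted p = 0.468). Psme3, the nuclear activator PA28 gamma, and the inhibitor Psmf1 had ratios of 0.16 (SE 0.11, adjusted p = 0.485) and -0.22 (SE 0.11, adjusted p = 0.351).

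Of the assembly chaperones, Psmd10, also known as gankyrin, had the largest ratio of all members. It was at 6.85, 6.73, 6.74, 7.21 and 7.09 in wild type livers 1 to 5, at 6.90, 7.58, 6.96, 7.14 and 7.23 in peritumoral livers and at 7.33, 7.21, 7.97, 7.48 and 8.86 in tumors. At 2 decimals tumor 2 equals wild type 4, and the other tumors were above all wild type livers. The ratio was 0.85 (SE 0.29, 1.80-fold, 95% interval 0.21 to 1.48, adjusted p = 0.184), and without tumor 5 it was 0.57 (adjusted p = 0.136). Psmd9, a further gene chosen on its values, reached 7.81 in tumor 2 and 7.55 in peritumoral 2 and between 6.15 and 6.81 in the other 13 arrays. The 4 chaperones of 20S assembly had ratios above 0, from 0.09 to 0.35, and the smallest p was that of Psmg1 (0.23, SE 0.16, adjusted p = 0.457).

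Promoter sequence is shown for 5 of the members above, because known regulators of proteasome and interferon genes bind short motifs near the start of transcription. The motifs searched, on both strands, were TGACNNNGC (antioxidant response element), CCAAT (bound by NF-Y), TTCNNNGAA (bound by STAT factors) and GAAA followed, after 2 bases of any kind, by GAAA (interferon response element), in windows from 250 bases before to 50 bases after each start in RefSeq (GRCm38.p6). Windows were at hand for 40 of the 48 members, 43 windows in all. TGACNNNGC was in 14% of the member windows and 12.4% of all 32851 windows, CCAAT in 34.9% and 37.4%, TTCNNNGAA in 6.98% and 8.3% and the interferon element in 11.6% and 3.44%. These shares were not tested, and a match is no proof of a site. The last motif was found for Psmb3, Psmd4, Psmd9, Psme1 and Psmg4, and the first for Psmb5, Psmb6, Psmc6, Psmd12, Psmd9 and Psme4, members whose ratios in tumors range from the lowest of all (Psme4) to among the higher. The lines below give, in the direction of the gene, the 250 bases before the start with the matches in capitals for a pair with the antioxidant element (Psmd12 at chr11:107479278-107479527, plus strand, and Psmb5 at chr14:54617996-54618245, minus strand), for the member with the largest ratio, with 3 matches to CCAAT (Psmd10 at chrX:140956712-140956961, minus strand), and for Psmb8, with a STAT match (chr17:34197945-34198194, plus strand). For Psme1 the interferon element begins 9 bases after the start, and the 30 bases around it are given (chr14:55578493-55578522, plus strand).
Psmd12: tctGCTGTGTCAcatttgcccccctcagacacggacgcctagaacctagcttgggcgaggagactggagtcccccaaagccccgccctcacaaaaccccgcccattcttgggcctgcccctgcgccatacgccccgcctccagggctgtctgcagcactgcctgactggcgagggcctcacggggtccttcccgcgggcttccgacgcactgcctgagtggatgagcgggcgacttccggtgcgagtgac
Psmb5: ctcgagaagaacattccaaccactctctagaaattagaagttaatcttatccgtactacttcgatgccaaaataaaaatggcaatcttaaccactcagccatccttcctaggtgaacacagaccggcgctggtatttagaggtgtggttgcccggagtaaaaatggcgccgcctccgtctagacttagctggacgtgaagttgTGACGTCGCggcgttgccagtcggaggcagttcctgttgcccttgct
Psmd10: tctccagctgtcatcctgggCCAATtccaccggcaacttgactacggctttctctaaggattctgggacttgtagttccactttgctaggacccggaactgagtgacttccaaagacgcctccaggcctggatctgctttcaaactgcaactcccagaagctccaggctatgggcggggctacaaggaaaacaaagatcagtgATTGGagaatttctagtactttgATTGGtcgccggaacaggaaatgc
Psmb8: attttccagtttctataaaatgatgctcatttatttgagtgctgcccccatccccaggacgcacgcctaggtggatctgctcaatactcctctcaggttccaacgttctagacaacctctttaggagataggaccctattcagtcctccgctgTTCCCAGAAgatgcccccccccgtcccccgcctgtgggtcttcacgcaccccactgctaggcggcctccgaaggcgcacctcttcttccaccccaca
Psme1: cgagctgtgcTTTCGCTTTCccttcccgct

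Tumor 5 stood apart from the other tumors for many members. It was the highest of all 15 arrays for 29 of the 48 members (60.4%) and for 18.4% of all genes. By role this held for 13 of the 14 constitutive subunits of the 20S core, for Psmb8, Psmb9, Psmb10 and Psme1, for the 4 chaperones of 20S assembly and for 5 of the 17 ATPases and non-ATPases of the 19S particle. It was the lowest array for 5 members (15.8% of all genes), which were the activator Psme4, the inhibitor Psmf1 and the 19S subunits Psmd2, Psmd3 and Psmd11, the last 3 named after their values were seen. Psmd2, a scaffold of the 19S base, was at 9.14 in tumor 5 and between 9.48 and 10.15 in the other 14 arrays. The median ratio to the wild type mean was 0.57 over the 20S core in tumor 5 and between -0.06 and 0.14 in the other tumors, while over the 17 subunits of the 19S particle it was 0.20 and between 0.01 and 0.12. With the brightest probe set of each gene, the medians in tumor 5 were 0.65 for the core and 0.41 for the 19S subunits. In the other tumors they were then between -0.12 and 0.24 for the core and between 0.03 and 0.28 for the 19S subunits. Without tumor 5, the ratio of tumor to wild type was above 0 for 34 of the 48 members, with a median of 0.09. The difference of the 3' and 5' control probe sets of beta actin, a sign of RNA quality, was 0.87 in tumor 5 and 0.41 to 0.58 in the other tumors, and 0.54 to 1.11 in wild type livers. Its part in the values of tumor 5 was not tested.

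Peritumoral 2 stood at the other end. It was the lowest of the 15 arrays for 20 of the 48 members (41.7%) and for 11.7% of all genes, and these included Psmb8, Psmb9 and Psmb10, 6 of the 14 constitutive core subunits and 5 of the 6 ATPases. It was the highest array for none of the members and for 10.9% of all genes. Psmb6, for example, was at 9.28 in peritumoral 2 and between 10.18 and 10.35 in the other peritumoral livers. Tumor 2, the tumor of the same number, was the highest array for 5 members (Psmd3, Psmd8, Psmd9, Psmd12 and Psme3) and the lowest for 3 (Psma2, Psma5 and Psme3ip1), of which Psma2 and Psma5 are named after their values were seen. Of all genes, 10% were highest and 10.3% lowest in tumor 2.

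**Figure D4:**
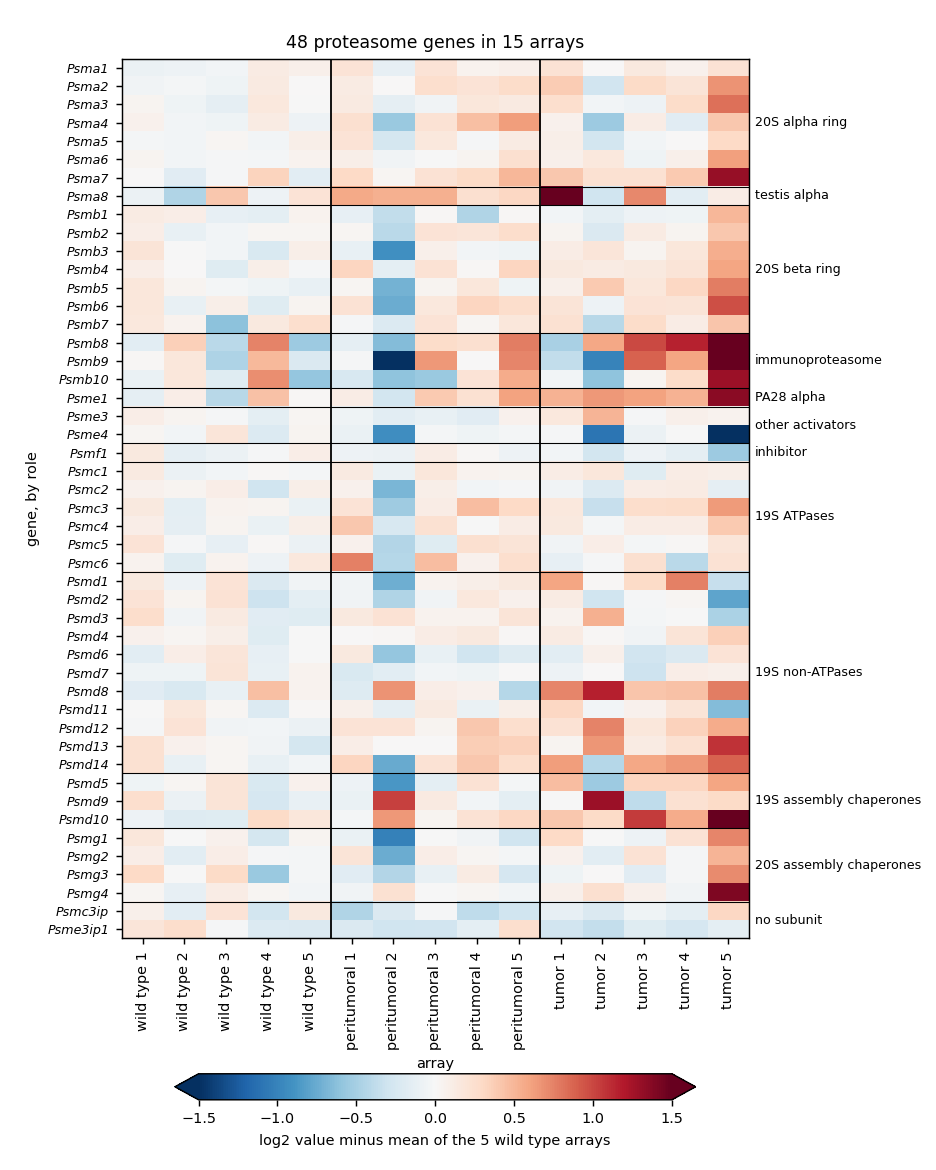
Log2 value of each of the 48 genes (rows, grouped by role) in each of the 15 arrays (columns) relative to the mean of wild type liver, shown as colour on a scale that ends at -1.5 and 1.5. Tumor 5 has the highest value of all arrays for 29 genes and peritumoral 2 the lowest for 20.

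In peritumoral liver compared with wild type liver, none of the 48 genes passed the test (limma), where 0.0403% of all genes did. The median ratio was 0.04 (-0.06 over all genes) and 28 members (58.3%) were above 0, against 38.9% of all genes. At an unadjusted p under 0.05, 4 members were higher and 1 was lower (5.18% and 9.88% of all genes). With probe sets averaged, no member had groups that did not overlap (1.12% of all genes higher and 2.08% lower). The smallest p values were those of Psma8 (0.43, SE 0.15, adjusted p = 0.246), Psmd12 (0.22, SE 0.09, adjusted p = 0.286), Psmc3ip (-0.28, SE 0.12, adjusted p = 0.314) and Psma7 (0.27, SE 0.12, adjusted p = 0.315). The only probe set of Psma8 was dim, with a mean of 4.06 where array medians were 5.47 to 5.68, so its ratio is a rough value. Psmb8, Psmb9 and Psmb10 had ratios of 0.10 (SE 0.30), -0.09 (SE 0.43) and -0.13 (SE 0.28), with intervals that reach from -1.04 to 0.87 for Psmb9. Without peritumoral 2, the ratio of Psmb9 was 0.34 (adjusted p = 0.426).

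Between tumors and peritumoral liver, none of the 48 passed (limma, 0.0161% of all genes), 37 members had ratios above 0 (54.0% of all genes) and the median was 0.12 (0.02 over all genes). At an unadjusted p under 0.05, 5 members were higher and 0 lower, where all genes gave 4.65% and 4.63%. With probe sets averaged, the groups of each member overlapped (1.22% of all genes were higher and 1.11% lower without overlap). The smallest p was that of Psmd8 (0.66, SE 0.21, 1.58-fold, adjusted p = 0.387), followed by Psme1 (0.52, SE 0.20, adjusted p = 0.492), Psmb5 (0.45, SE 0.18, adjusted p = 0.505) and Psmg1 (0.53, SE 0.22, adjusted p = 0.513). Peritumoral 2 lowers the peritumoral mean of many members, and without it 31 members were above 0, with a median of 0.05. The 3 comparisons share their groups, so their values are not independent of each other.

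The choice of probe sets mattered for several members. Of the 21 members with several probe sets, 13 had probe sets more than 3 log2 units apart in mean value, and 11 had probe sets on both sides of 0 for tumor against wild type. With a limit set after the values were seen, the 21 probe sets with a mean under 6 had a median ratio of -0.10 with 7 above 0, and the 64 with a mean of 6 or more had a median of 0.22 with 53 above 0. The same shares over all probe sets of the arrays were not computed, so these counts cannot be set against a background. With the brightest probe set of each gene in place of the average, 41 of the 48 members were above 0, with a median of 0.24, and 11 were higher at p under 0.05 before adjustment, while again none passed the adjusted test. Of all genes treated in this way, 41.1% were above 0, 7.94% were higher at p under 0.05 before adjustment and 0.444% passed. The 17 subunits of the 19S particle then had a median of 0.22 with 15 above 0, and the 20S core 0.25 with 12 of 14 above 0. Of the ATPases, Psmc6 went from -0.02 to 0.44 (adjusted p = 0.131), and of the non-ATPases, Psmd6 went from -0.08 to 0.34 (adjusted p = 0.173) and Psmd7 from -0.04 to 0.31 (adjusted p = 0.283), all 3 named after their values were seen. Psmf1 went from -0.22 to 0.03. Psmb4 then had overlapping groups, while Psmc6 joined the members with all tumors above all wild type livers (2.32% of all genes). Psmc6, for example, has probe sets with means of 5.32, 8.44 and 9.72 and ratios of -0.27, -0.22 and 0.44. Which of these probe sets measures the main transcript is not known.

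**Figure D5:**
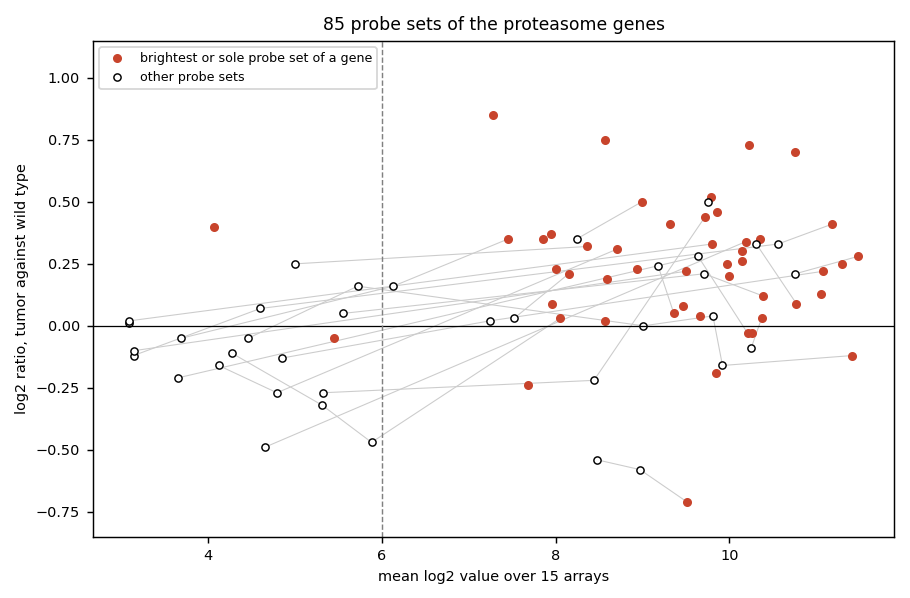
Log2 ratio of tumor to wild type (y axis) against the mean log2 value over 15 arrays (x axis) for the 85 probe sets, with grey lines joining the probe sets of 1 gene and a dashed line at a mean of 6. Of the 64 probe sets to the right of the dashed line 53 lie above 0, and of the 21 to the left 7 do.

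The genes around the proteasome were described in the same way, from lists of its partners and regulators. Of 16 measured partners outside the symbol pattern, such as the core maturation factor Pomp and the ubiquitin receptors, none passed in any comparison, and in tumors 7 had ratios above 0 with a median of -0.04, and before adjustment 2 were higher and 2 lower at p under 0.05 (limma). The smallest p was that of Zfand2a, a stress-induced protein bound to the 19S particle (0.51, SE 0.14, adjusted p = 0.111), and Pomp was at 0.03 (SE 0.17, adjusted p = 0.951). Of 10 regulators, none passed (1 higher and 1 lower at p under 0.05 before adjustment), and Nfyc, a subunit of NF-Y, had the smallest p (-0.31, SE 0.10, adjusted p = 0.173). Nfe2l1, given because it encodes NRF1, was at -0.22 (SE 0.28, adjusted p = 0.712). Of 13 genes for ubiquitin conjugation and VCP, 10 had ratios above 0, but the 1 that passed was lower: Ube2r2, a ubiquitin-conjugating enzyme of SCF ligases, fell by 0.88 in tumors (SE 0.14, adjusted p = 0.0346). It was between 9.05 and 9.84 in wild type livers, between 8.73 and 9.26 in peritumoral livers and between 8.45 and 8.76 in tumors, so that no tumor overlapped with wild type liver.

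None of 11 measured genes of class I antigen presentation and none of 16 of the interferon response passed in tumors (limma). Before adjustment, 2 genes of antigen presentation were higher and 1 lower at p under 0.05, and 1 interferon gene was higher. In antigen presentation 5 of the 11 had ratios above 0 and the smallest p was that of Calr, the chaperone calreticulin (-0.65, SE 0.18, adjusted p = 0.117). In the interferon list, which holds Psmb8 and Psmb9 themselves, 10 of the 16 were above 0 with a median of 0.07, and the smallest p was that of the chemokine Cxcl10 (0.84, SE 0.32, adjusted p = 0.227). The mean ratio of this list to the wild type mean was -0.13, 0.30, -0.36, 0.46 and -0.26 in wild type livers 1 to 5, 0.35, -0.77, 0.27, 0.20 and 0.75 in peritumoral livers and -0.08, -0.64, 0.44, 0.32 and 0.72 in tumors. In wild type 4, peritumoral 5 and tumor 5, the highest of their groups, Psmb8, Psmb9 and Psmb10 were at their highest of the group as well. In peritumoral 2, the lowest of all arrays, these genes were at their lowest of all arrays. In tumor 2, the lowest tumor, Psmb9 and Psmb10 were at their lowest of the tumors but Psmb8 was above the wild type mean. In peritumoral 1, where the list was above 0, all 3 genes were below their wild type means. Since the list mean includes Psmb8 and Psmb9, its match with these genes is partly built in. The part of an interferon response in these values was not tested. Of 20 leukocyte markers and 10 hepatocyte markers none passed, while before adjustment 1 leukocyte marker was higher and 2 were lower at p under 0.05, and no hepatocyte marker was either. The smallest p values in tumors were those of Cd3e (-0.34, SE 0.12, adjusted p = 0.195) and Apob (-0.97, SE 0.52, adjusted p = 0.360). Of the leukocyte markers, 8 of 20 had ratios above 0, with a median of -0.08. The macrophage gene Cd68, chosen on its values, was at 1.62 (SE 0.60, adjusted p = 0.213). Against peritumoral liver, Cd68 was at 0.88 (SE 0.51, adjusted p = 0.661, limma). There the macrophage genes Csf1r (-0.88, SE 0.36, adjusted p = 0.504) and Adgre1 (-0.70, SE 0.28, adjusted p = 0.504) were lower.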

How the data were processed

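The deposited values are log2 values of RMA, which the authors made after scanning with GCOS 1.4. RMA subtracts background, gives all arrays 1 distribution and combines the probes of a set, so a shift common to most genes would be removed. The RMA version and genome build are not given in the sources used here, and the methods name more than 1 mouse array type. A deposited table of the authors' own log2 ratios to wild type was not used. Of 22690 probe sets, 20380 with 1 gene symbol were kept and averaged for 12393 genes. The study also averaged probes of a gene, and the limit to 1 symbol was added here. Array medians were 5.47 to 5.68. Precision is limited by the number of arrays. Since the labels call only the knockout samples biological replicates, p-values measure the spread between these arrays.

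Each comparison was fitted with limma 3.58.1 (R 4.3.3) on its 2 groups alone, with Benjamini-Hochberg adjustment over all genes and a threshold of 0.05. Exact permutation tests used scipy 1.17.1. The fit was tested on simulated data of 12393 genes: for tumor against wild type, 15 of 67 genes with a log2 change of 0.5 were recovered, 47 of 67 with a change of 1 and 60 of 66 with a change of 2.

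The members and lists were chosen with earlier results of these data known, the lists from textbook knowledge. Genes named with values were those always followed (the immunoproteasome genes, the subunits they replace and Mat1a), members that pass or do not overlap, the member with the smallest p in each role and comparison, and of other lists the genes that pass or have the smallest p. Others are marked.

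Equally numbered tumor and peritumoral arrays deviated together from their group means (correlations across genes 0.353, 0.673, 0.271, 0.308 and 0.117, all over 0.1), so the numbers were taken to pair these 2 groups, which no label states. The best partner of tumor 4 was peritumoral 1. The reported fits and permutation tests are unpaired, and the pairs enter only through the replicate block. Equal numbers with wild type arrays gave -0.223 to 0.207 and were not taken as pairs, though the block was also fitted by number in those comparisons. This range also reaches over 0.1, so that limit alone does not tell pairs from other arrays. Alternatives were the brightest probe set, probe sets without possible cross-hybridization, all 3 groups in 1 fit, other scalings, a filter on the lowest 40% of genes, a variance trend, array weights, the replicate block and arrays left out.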

Additional observations from a re-analysis of the deposited data

Results flagged for a closer look

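In 12 of 66 groups of 5 arrays, tested for 22 of the genes named above, 1 array lay far from the other 4 (Dixon's test, gap over range above 0.71). Chance alone flags about 1 in 20 such groups, and groups of genes measured on the same arrays are not independent.

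Tumor 5 was the high array for 6 genes. It was at 10.82 for Psma7 (other tumors 9.74 to 9.92), 8.27 for Psmb1 (7.63 to 7.73), 11.58 for Psmb4 (11.11 to 11.18), 10.99 for Psmb6 (9.94 to 10.23), 5.87 for Psmc3ip (5.34 to 5.49) and 11.27 for Psme1 (10.44 to 10.57). Peritumoral 2 was the low array for 3 genes, at 9.57 for Psmb5 (other peritumoral livers 10.21 to 10.44), 9.28 for Psmb6 (10.18 to 10.35) and 8.33 for Psme4 (9.17 to 9.24). The other 3 were the low value of Psmb7 in wild type 3 (10.39, others 11.05 to 11.25), the high value of Psmd12 in wild type 2 (9.32, others 9.03 to 9.10) and the high value of Psme3ip1 in peritumoral 5 (8.06, others 7.51 to 7.66).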

How the results depend on the processing

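With 5 arrays a group, single arrays weigh heavily on the proteasome genes, and dim probe sets give only rough levels. No member passed in any comparison in the fit reported above, and centering or quantile-normalizing again, a filter on low genes, a variance trend, 1 fit over 3 groups, leaving out probe sets with possible cross-hybridization or the brightest probe set gave none that did, while these settings called 0.331% to 2.32% of all genes in tumors against wild type. With array weights, 6 members rose in tumors against wild type liver (14.8% of all genes called), 1 in peritumoral liver (Psma7, 8.73%) and 1 in tumors against peritumoral liver (Psmd8, 5.43%). Without wild type 4, peritumoral 2 and tumor 2, 2 rose in tumors (4.59%) and 2 in peritumoral liver (Psma4 and Psma7, 7.73%), and without tumor 5 as well, 6 rose in tumors (11.5%). The arrays left out were picked from these same data, so these calls are no independent support.

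The direction of some small ratios changed. With the brightest probe set, Psmf1 was at 0.03, 0.02 and 0.01 for tumor and peritumoral liver against wild type and for tumor against peritumoral liver, Psmb1 at 0.04 in peritumoral liver and Psmc6 at 0.20 for tumor against peritumoral liver. With array weights, Psmb10 and Psmb9 were at 0.05 and 0.26 in peritumoral liver and Psma8 at 0.02 for tumor against peritumoral liver. Without the 3 arrays, peritumoral liver gave 0.16 for Psmb10, 0.03 for Psmb5, 0.47 for Psmb9, 0.27 for Psmb9 minus Psmb6 and 0.03 for Psmb10 minus Psmb7, and tumor against peritumoral liver gave 0.16 for Psma8. Without 4 arrays, Psma8 and Psmb6 were at 0.32 and -0.04 there. The cause was not tested.

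With each array left out in turn, 0 to 1 members rose in tumors (Psmd8 without wild type 4, where 2.57% of all genes were called, or Psmd14 without tumor 2, where 1.1% were) and 0 in the other comparisons, where up to 2.15% of all genes were called in peritumoral liver and up to 0.29% in tumors against peritumoral liver. The ratios above 0 numbered 34 to 39, 24 to 32 and 31 to 39 in the 3 comparisons in the order above, with medians of 0.09 to 0.19, 0.00 to 0.08 and 0.05 to 0.19. Among the genes followed by name, ratios that changed direction in tumors against wild type were those of Psmb10 (-0.09 to 0.38) and Psmb7 (-0.03 to 0.26). In peritumoral liver they were those of Psmb10 (-0.30 to 0.04), Psmb5 (-0.17 to 0.04), Psmb6 (-0.02 to 0.24), Psmb7 (-0.12 to 0.10), Psmb8 (-0.06 to 0.29), Psmb9 (-0.29 to 0.34) and Psmf1 (-0.05 to 0.02), and in tumors against peritumoral liver that of Psma8 (-0.34 to 0.14). Psmb9 minus Psmb6 ranged from -0.10 to 0.32, -0.29 to 0.10 and -0.03 to 0.45, and Psmb10 minus Psmb7 from -0.15 to 0.20 in tumors against wild type.

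With the replicate block, 0 members rose or fell in all 3 comparisons. The counts above 0 stayed at 37, 28 and 37, which such a block cannot change, since each block holds an array of each group. Against wild type the block joins arrays that were not taken as pairs, so in those comparisons it is no check of the results. The block changed no call of a member, left the exchange of the catalytic subunits in tumors against peritumoral liver at an adjusted p of 0.375 for each pair (exact sign flips over 5 pairs, smallest possible p 0.0625), and all genes gave 10, 0 and 1 calls.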
